A study of Arabidopsis thaliana with 23 samples.

Results

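REF6-GFP binding was compared between chromatin fixed with and without disuccinimidyl glutarate (DSG), a reagent that joins proteins to one another before the usual fixation of protein to DNA. The comparison rests on 6 of the 23 samples of the series, 3 with DSG and 3 without. Each group of 3 is represented by 1 list of peaks called on pooled samples, which held 5393 peaks with DSG and 4526 without, together 9919 of the 36883 regions in the 6 lists of the series. Peaks of both lists that overlapped by at least 1 bp were matched. The matched and unmatched peaks were then described by the position of their summits, the base of strongest signal that the peak caller gives, by their widths and by the genes they lie in.

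REF6 belongs to the Jumonji demethylases and takes off trimethylation of lysine 27 on histone H3 (H3K27me3), the mark with which Polycomb complexes keep genes silent. It reaches many of its target genes through zinc fingers at its C-terminal end, which recognise a short DNA motif. Plants without REF6 gain H3K27me3 at many of these genes. A crosslinker such as DSG is used in chromatin immunoprecipitation to hold proteins that touch DNA through other proteins.

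Both groups were Arabidopsis thaliana flowers collected before opening from 5-week-old plants, grown in a greenhouse under long days at 22 °C by day and 20 °C by night. All 6 samples carried REF6 fused to GFP in the ref6-3 mutant of the Col-0 background, and chromatin was precipitated with beads that bind GFP. The promoter that drives the fusion is not given in the labels of these samples, nor is it said whether the 3 samples of each group were taken from different plants. Input DNA came from Col-0 plants expressing GFP from the UBQ10 promoter, 2 samples for each fixation, and the input that served as control for a list is not named in the sources used here. Because each group is 1 pooled list, no difference between the groups could be tested against replicate error. Intervals in brackets are 95% intervals that cover counting error over peaks or genes only, by Wilson's method for shares and from exact binomial order statistics for medians.

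Most REF6-GFP peaks were found under both fixations, and the list with DSG was the longer one. A counterpart with DSG existed for 4355 of the peaks without it (96.2%, 95.6 to 96.7%), and a counterpart without DSG for 4295 of the peaks with it (79.6%, 78.5 to 80.7%). This left 1098 peaks seen with DSG alone and 171 seen without DSG alone. The peaks with DSG covered 4.56 Mb and those without covered 3.51 Mb. The bases covered in both lists were 72.5% of the length with DSG and 94.3% of the length without. On the 5 chromosomes the shared part ran from 79.0 to 81.2% of the peaks with DSG and from 95.5 to 96.8% of those without.

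The weakest peak kept differed between the lists, with a lowest −log10 p of 13.8 with DSG and 11.4 without. When the list with DSG was shortened to its peaks of highest −log10 p, as many as the list without DSG holds, 89.6% of its peaks and 91.0% of the peaks without DSG were shared. With one −log10 p minimum for both lists, the shares were 73.6% and 98.1%. The common minimum is the lowest value of the list with DSG, so it kept all 5393 of its peaks and 4089 without DSG. This made the list lengths more unequal. At equal length the shares differed by under 2 percentage points, and 66 peaks with DSG overlapped 2 or more without, against 3 in reverse. Neither setting shows whether the share is lower with DSG.

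Peaks of one list alone were low and narrow. The fold enrichment of a peak, which is the authors' own ratio of the pooled sample to its control, had a median of 2.80 in the 1098 peaks with DSG alone and 5.29 in the peaks with DSG that had a counterpart. Folds reached 24.9 with DSG and 32.6 without. The 2 lists were not put on one scale, so folds given side by side do not measure a difference in binding. Without DSG, the 171 unshared peaks had a median fold of 2.64, against 4.35 in those with a counterpart. Their widths had medians of 485.5 bp with DSG and 423 bp without, against 796 and 681 bp where a counterpart existed. None of the 171 peaks, and 11 of the 1098, had a fold above the median of their own list. Of the 171, 95 (55.6%) had a −log10 p below the lowest value that the list with DSG contains, against 342 (7.85%) of the peaks without DSG that had a counterpart. With each list split into 5 equal groups by fold, the shared part of the peaks with DSG was 35.6%, 68.1% and 94.5% in the 3 weakest groups, lowest fold first. For the peaks without DSG these shares were 85.1%, 96.2% and 99.8%, and in the top 2 groups of both lists they were 100%.

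The summit of a shared peak lay at nearly the same base under both fixations. Over the 4215 pairs in which 1 peak matched 1 peak, the summits were a median of 20 bp apart (19 to 21 bp), with quartiles of 8 and 41 bp. In 80.8% of the pairs they were within 50 bp, and in 58 pairs they were on the same base. The summit with DSG had the higher coordinate in 2010 pairs and the lower in 2147, with a median signed shift of -1 bp. The distance was smaller in stronger peaks. With pairs split into 5 groups by their mean fold percentile, the median distance was 34, 26, 24, 17 and 9 bp from the weakest group to the strongest, and the share within 50 bp went from 64.5% to 97.5%.

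Summits lay far apart in a few regions that hold several summits. In 99 pairs (2.35%) the distance was over 150 bp, and in all 99 the peak name in at least 1 list ended in a letter, which the peak caller adds where it finds several summits in a region. None of the 2222 pairs without a letter exceeded 147 bp, while 76 of the 932 pairs lettered in both lists passed 150 bp. The lists give 1 summit per region, so the distance in lettered pairs can be that between different summits of the region. The largest distance, 1205 bp, was at AT3G22690 and AT3G22700 (chromosome 3, 8023935 to 8026065 with DSG in the TAIR10 build, and 8025380 to 8026046 without). There the summit with DSG lay 10 bp outside AT3G22690 and the summit without DSG lay in AT3G22700. At AT5G58000, the strongest of the 5 pairs with the largest distances, the summits were 936 bp apart, although the fold was 13.1 with DSG and 11.1 without and the widths were 1839 and 1926 bp. Both summits lay in the same gene body.

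**Figure D1:**
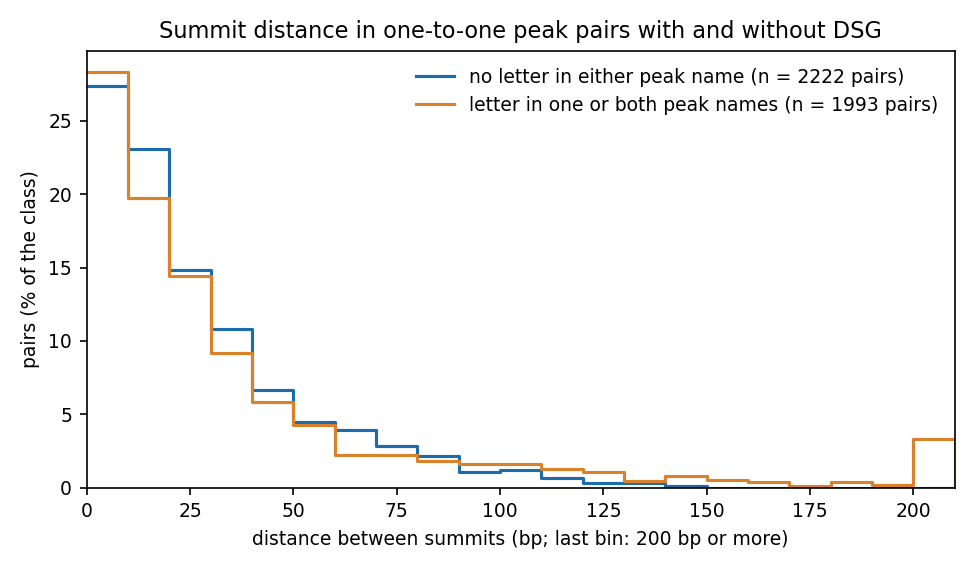
Distance in bp between the summits with and without DSG (bins of 10 bp, the last one 200 bp or more) as % of the one-to-one REF6-GFP pairs without a letter in either peak name (2222, blue) and with a letter in one or both (1993, orange). Both classes are highest at the shortest distances, and only the lettered pairs reach beyond 147 bp.

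Shared peaks were wider with DSG. In 3355 of the 4215 pairs (79.6%) the peak with DSG was the wider one, in 844 it was the narrower one and in 16 the widths were equal. The median width was 790 bp with DSG and 682 bp without, and the median ratio within pairs was 1.13 (1.12 to 1.14). Both edges contributed alike, with medians of 37 and 38 bp. The peak without DSG lay entirely inside its counterpart in 55.8% of the pairs, and the reverse held in 7.21%. The ratio was similar at all strengths, with medians of 1.11 to 1.14 in the 5 groups, so the added width was 52 bp in the weakest group and 166 bp in the strongest.

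**Figure D2:**
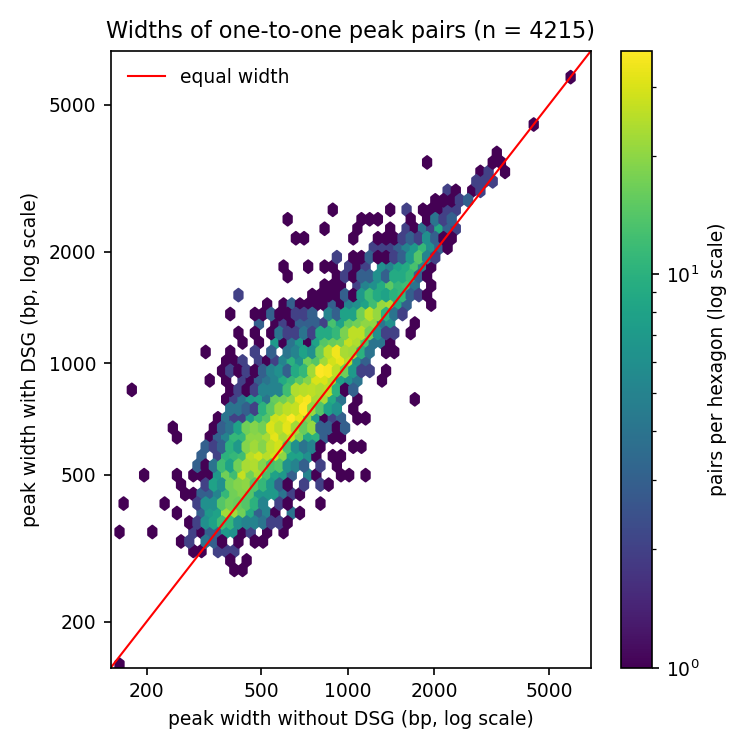
Width in bp of each one-to-one REF6-GFP peak with DSG (vertical) against its counterpart without DSG (horizontal), both on log scales, coloured by the number of pairs. Of the 4215 pairs, 3355 lie above the line of equal width.

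Large differences in width were few and mostly sat in regions with several summits. The peak with DSG was at least 2 times as wide in 86 pairs, of which 68 had a letter with DSG only and 5 had none in either list, and the reverse was seen in 3 pairs. Where the letter was with DSG only, the median ratio was 1.37, against 1.13 where neither list had one. The largest ratio, 4.80, was at AT2G45243, where a peak of 835 bp with DSG faced one of 174 bp without, with their summits 7 bp apart. The cyclin gene CYCP3;2 had 1084 bp with DSG and 311 bp without, a ratio of 3.49. In the opposite direction, AT4G20790 had 492 bp with DSG and 1184 bp without, a ratio of 0.416. At MOT2, a molybdate transporter gene, the peak was 804 bp wide with DSG and 1674 bp without.

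Some regions were 1 peak with DSG and several without. This was so for 67 peaks with DSG, which overlapped 135 peaks of the other list. The gaps that DSG peaks spanned had a median of 156 bp, the smallest being 78 bp and the largest 951 bp. The reverse was seen for 8 peaks without DSG. At AT1G27270 (chromosome 1, 9470653 to 9474334), 1 peak of 3682 bp with DSG overlapped 3 peaks of 562, 883 and 1577 bp without. At AT5G55340 the widest peak with DSG, 6931 bp (chromosome 5, 22438573 to 22445503), covered peaks of 1882 and 2529 bp. The summit with DSG, like the summit of the stronger piece without it, lay in the left part, 2284 and 2272 bp from the start of the DSG peak.

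The neighbouring genes XTH12 and XTH13, which encode xyloglucan-modifying enzymes of the cell wall, were such a region. With DSG a single peak of 4619 bp and fold 24.7 (chromosome 5, 23299572 to 23304190) had its summit 156 bp from XTH12. Without DSG there was a peak of 2006 bp with fold 31.1, its summit 152 bp from XTH12, and a second one of 1367 bp with fold 18.9, its summit 70 bp from XTH13. Counted by summits, XTH13 was therefore bound without DSG only, although the DSG peak covers that second peak. PEN2, which encodes an atypical myrosinase of the defence against fungi, had 1 peak of 3126 bp with DSG and peaks of 1025 and 1238 bp without.

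**Figure D3:**
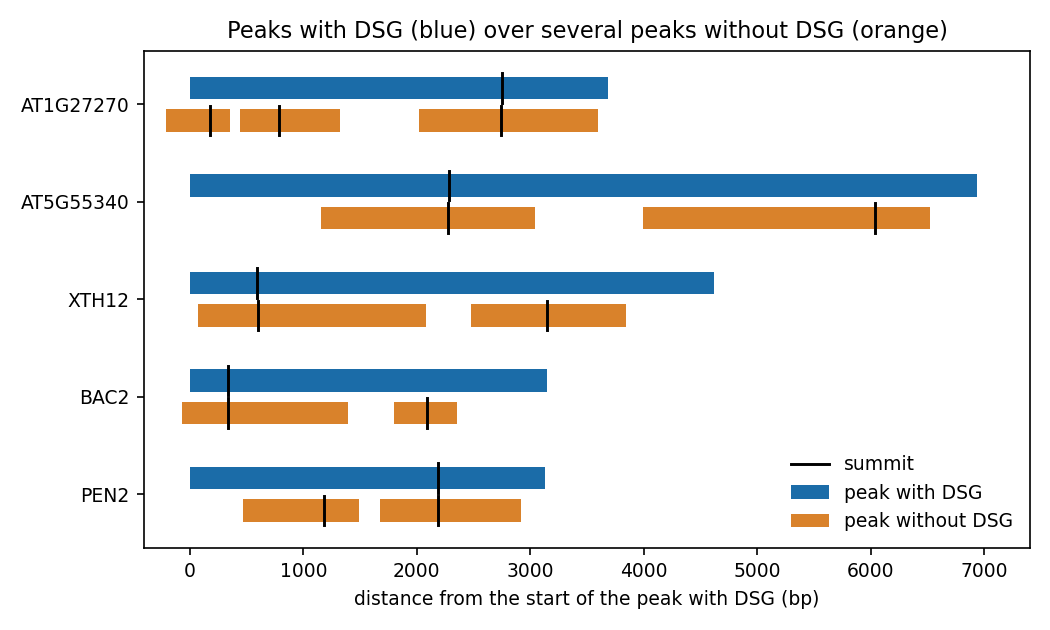
The REF6-GFP region in which 1 peak with DSG (blue) overlapped 3 peaks without DSG (orange), and the 4 widest in which it overlapped 2, against the distance in bp from the start of the DSG peak, with a black tick at each summit. The summit with DSG lies beside the summit of the piece with the highest fold, as at XTH12, where both are within 4 bp.

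The order of the shared peaks by fold was largely kept. Over the 4215 pairs, ranked within each list, Spearman's rho was 0.904 and Pearson's r of the log2 folds was 0.932, given as a description because the pairs share their loci, tissue and transgene. Of the 422 strongest pairs with DSG, 348 (82.5%) were also among the 422 strongest without it. Ranks differed by a median of 6.41 percentile points, and by over 25 points in 275 pairs (6.52%). PBS1, a kinase gene of plant immunity, stood at percentile 51.9 of the pairs with DSG (fold 5.42) and 0.522 without (fold 2.27). The sugar transporter gene ERD6 stood at 60.9 with DSG and 10.6 without. INT2, an inositol transporter gene, stood at 8.64 with DSG and 54.2 without. The summits of these 3 peaks were 12 to 54 bp apart, so the rank differed where the position hardly did.

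Summits lay in the bodies of protein-coding genes under both fixations, in 85.9% of the peaks with DSG (84.9 to 86.8%) and 86.9% without (85.8 to 87.8%). A further 11.5% and 10.7% were within 1 kb of a gene, and 2.65% and 2.47% were farther away. Peaks with DSG alone had 83.0% of their summits in bodies (80.6 to 85.1%) and peaks without DSG alone 90.1% (84.7 to 93.7%). Of the 4215 pairs, 4163 (98.8%) fell into the same of these 3 classes in both lists. Where both summits of a pair were in bodies, they were in the same gene in 3630 of 3631 pairs.

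Genes with a summit inside them, or no more than 1 kb from either end, were counted as bound. Of 27444 protein-coding genes, 6886 (25.1%) were bound with DSG and 5865 (21.4%) without. Both lists bound 5624 genes (20.5%), which is 81.7% of those bound with DSG and 95.9% of those bound without. A further 1262 genes (4.60%) were bound with DSG only, 241 (0.878%) without DSG only and 20317 (74.0%) in neither list. At equal list length, 552 genes were bound with DSG only and 504 without DSG only, and at a common −log10 p minimum the genes bound without DSG only numbered 113. The counts of genes bound in one list only therefore changed with the point at which each list was ended.

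The 10 genes with a symbol, bound in both lists, that had the highest fold with DSG kept their summits to within 9 bp. They were ROL5, XTH12, CYP71B2 and its neighbour CYP71B28, FNR2, SNRK2-8, DIN9, GSR 1, NPC3 and REF6 itself. At GSR 1, a cytosolic glutamine synthetase gene, the summits were on the same base, the fold was 23.6 with DSG and 31.7 without, and the widths were 2706 and 2689 bp. SNRK2-8, a kinase gene of the SnRK2 family, had summits 1 bp apart and widths of 2019 and 1329 bp. CYP71B2 and CYP71B28 share 1 peak, so the 10 genes rest on 9 peaks, of which 8 were wider with DSG and that of REF6 was not.

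At REF6 the peak was 5939 bp wide with DSG (chromosome 3, 17934638 to 17940576) and 5947 bp without, with summits 9 bp apart and folds of 23.4 and 19.0. It was the widest peak without DSG and the widest but one with it. The plants carry the REF6-GFP transgene besides the locus, and reads from either copy cannot be told apart. The input plants are described as expressing GFP, with no REF6 fusion named. Signal from extra copies of the gene therefore cannot be told apart from binding at REF6.

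The genes bound in one list only were of 2 kinds. Of the 1262 genes bound with DSG only, 25 had a peak with a counterpart, and 1237 rested on peaks of that list alone. The 4 with the highest fold were of the first kind, namely PHT3;3 (a mitochondrial phosphate carrier), SDP6 (a glycerol-3-phosphate dehydrogenase), OASA1 (a cysteine synthesis enzyme) and AIR12. Their summits with DSG were 927 to 992 bp from the gene and those without were 1003 to 1048 bp from it, on either side of the 1 kb limit.

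Peaks that had no counterpart followed at lower fold. ALE2, a receptor-like kinase gene of epidermis formation, had a peak of 458 bp with DSG at a fold of 4.93 (chromosome 2, 8759916 to 8760373). PUR7, of purine synthesis, had one at 4.78 and PHF1, which helps phosphate transporters leave the endoplasmic reticulum, one at 4.60. The others in the 10 were ckl7, MES11 and HOS10, and the 6 folds lay between 4.50 and 4.93, just above the median of their list, 4.37.

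Of the 241 genes bound without DSG only, 41 had a peak with a counterpart and 200 did not. Among the 10 with the highest fold, XTH13, RWA1 and CAF1 were of the first kind. RWA1, of cell wall acetylation, had its summit 965 bp away without DSG and 1040 bp with it. The other 7 had folds of 3.09 to 3.35, below their list's median of 4.22. They include CCA1, a core transcription factor gene of the circadian clock, with a peak of 516 bp in its body at a fold of 3.15 (chromosome 2, 19248501 to 19249016), which also counts for its neighbour DUF4. The others were UMAMIT38, GH9A3, YLS5, ABCB24 and DPB2, the last a subunit of DNA polymerase epsilon. None of the 10 genes was covered by H3K27me3 in wild-type flowers. In the elf6 ref6 jmj13 triple mutant XTH13 was covered at 100%, ABCB24 at 95.1% and GH9A3 at 92.5%. The other 7, CCA1 among them, were at 0% there. The 10 named genes of each other set were also at 0% in the wild type. In the mutant those bound with DSG only stayed at 0%. Of those bound in both lists, XTH12, CYP71B28, CYP71B2, NPC3, SNRK2-8 and DIN9 had 46.4 to 100% covered. ROL5, FNR2, GSR 1 and REF6 had 0%. Of all 241 genes bound without DSG only, 19.1% had at least 50% covered in the wild type, against 23.7% of coding genes.

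Genes of 13 lists on hormones, flowering, organ formation, senescence and Polycomb silencing were bound in both lists or not at all, apart from 5 members. Of 174 members, 42 (24.1%) were bound in both, 5 with DSG only, 0 without DSG only and 127 in neither, beside 20.5%, 4.60%, 0.878% and 74.0% of all coding genes. For the 42, the summits of the highest peaks were a median of 19 bp apart and 32 were within 50 bp. The peak was wider with DSG at 35 of the 42, with a median ratio of 1.13, the same as over all pairs.

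**Figure D4:**
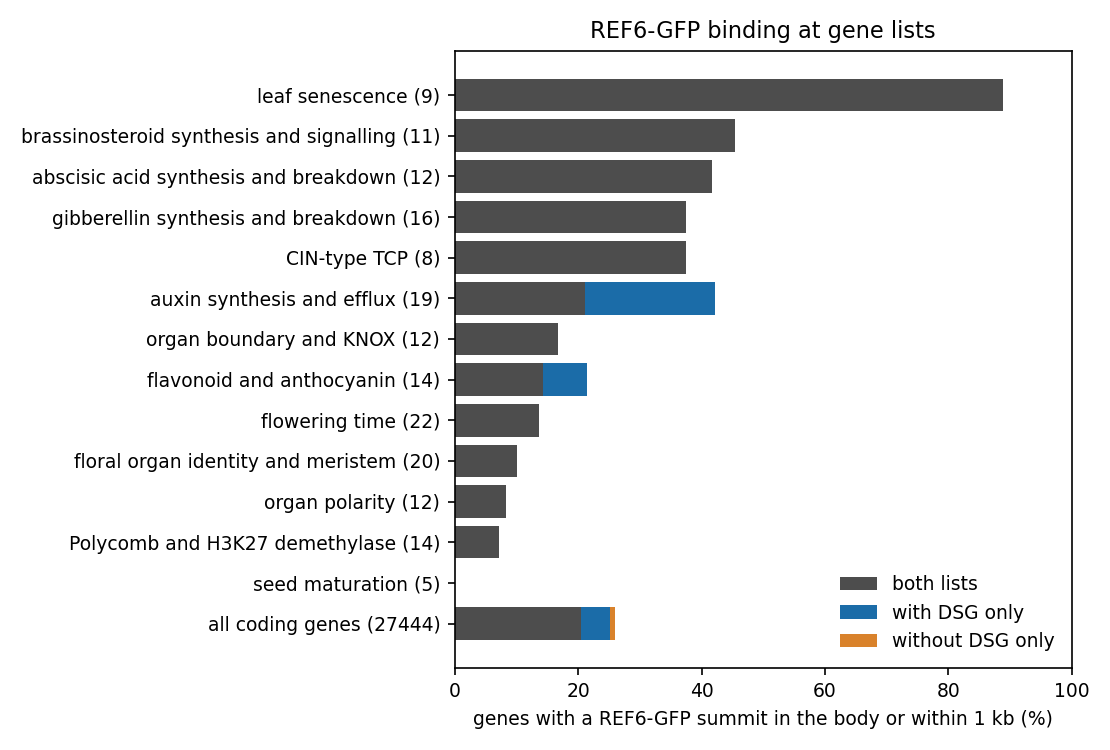
Share in % of the genes of each list (number of members in brackets) with a REF6-GFP summit in the body or within 1 kb, in both lists, with DSG only or without DSG only. Genes bound with DSG only appear in the auxin list (4 of 19) and the flavonoid list (1 of 14), and none of the 174 members was bound without DSG only.

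Auxin genes held 4 of the 5 members bound with DSG only. Of 19 genes for auxin synthesis and efflux, 4 were bound in both lists, among them YUC3, YUC7 and YUC11, and 4 with DSG only (YUC1, YUC8, PIN5 and PIN7), where YUC genes encode flavin monooxygenases that make auxin and PIN genes encode its efflux carriers. YUC3 had folds of 19.2 with DSG and 27.1 without, with summits 4 bp apart, and YUC7 had 17.1 and 25.9. YUC1, YUC8, PIN5 and PIN7 had folds with DSG of 2.74, 3.03, 2.45 and 3.27, all below the list's median of 4.37. At equal list length YUC1, YUC8 and PIN7 were still bound with DSG only, and PIN5 was not bound.

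The flavonoid genes CHS (chalcone synthase) and LDOX (anthocyanidin synthase) were bound in both lists, and CHI (chalcone isomerase) with DSG only, among 14 genes. LDOX had folds of 22.9 with DSG and 30.3 without, CHS had 5.53 and 3.85, and CHI had 2.20. CHI was not bound at equal list length.

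Of 12 abscisic acid genes, 5 were bound in both lists and 7 in neither, and the bound genes ranged from strong to weak. NCED3, whose product makes the first committed step of abscisic acid synthesis, had folds of 19.7 with DSG and 18.2 without. Its highest peak was 2697 bp wide with DSG and 1498 bp without, but the gene had 1 summit with DSG and 2 without. CYP707A1 and CYP707A3 encode hydroxylases that break the hormone down. CYP707A3 had folds of 23.0 and 18.0, with summits 10 bp apart, and CYP707A1 had 18.1 and 24.2. The synthesis genes NCED9, at 3.38 and 3.28, and ABA2, at 3.74 and 2.86, were below the medians of both lists. Of 16 gibberellin genes, 10 were bound in neither list and 6 in both, namely GA20OX1, GA20OX2 and GA3OX3 of synthesis and GA2OX1, GA2OX2 and GA2OX3 of breakdown. GA2OX1 had folds of 17.9 and 14.4, GA3OX3 had 4.75 and 4.29, and at GA2OX3 the summits were on the same base.

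Of 11 brassinosteroid genes, 5 were bound in both lists: DWF4, CPD, BR6OX1 and BR6OX2 of synthesis and BAS1 of inactivation. BR6OX1 had folds of 18.2 with DSG and 20.3 without. At BAS1 the summits were 277 bp apart in a peak of 1310 bp with DSG and 1110 bp without. DWF4, at folds of 10.2 and 6.89, had its summits 68 bp apart.

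The leaf senescence list was bound at 8 of 9 genes in both lists, but its genes include known REF6 targets and its count is not independent. EIN2, the central transducer of ethylene signalling, had a peak of 1082 bp with DSG and 397 bp without, at folds of 4.99 and 2.91. The NAC transcription factor genes ORE1 and NAP had folds of 8.07 and 10.1 with DSG and of 7.61 and 11.0 without. At PAD4 the strongest peaks of the lists lay 1216 bp apart, because each list had 2 summits at the gene and ranked them differently, and the nearest summits were 47 bp apart.

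Among genes of organ formation and flowering, most were bound in neither list, as were 74.0% of all coding genes. The share in neither was 62.5% for CIN-type TCP genes and 83.3 to 91.7% for the boundary, polarity, floral and flowering-time lists. The boundary genes CUC1 and CUC3 were bound in both, CUC1 with folds of 10.8 with DSG and 9.95 without and summits 42 bp apart. Of 8 CIN-type TCP genes, which limit growth in leaves and petals, TCP3, TCP4 and TCP24 were bound in both, and TCP4 had the narrower peak with DSG, 729 bp against 1094 bp. REV, an adaxial-fate homeobox gene, had folds of 17.6 and 17.4 and summits 18 bp apart. SHP1 and SHP2 of 20 floral genes and MAF4, MAF5 and TEM2 of 22 flowering-time genes were bound in both, with folds from 3.20 to 7.24 over the 2 lists. TEM2, a repressor of flowering, had a peak of 818 bp with DSG and 374 bp without. Of 14 Polycomb and demethylase genes only REF6 was counted as bound, where the transgene prevents telling binding from extra copies. Of 5 seed maturation genes none was bound.

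H3K27me3 domains were mapped in wild-type and elf6 ref6 jmj13 flowers, the latter a triple mutant in REF6 and related demethylases, and these domains were not used to match the peaks. Regions that only the triple mutant list marks held the summits of 39.6% of the peaks with DSG that had a counterpart (38.2 to 41.1%), and of 23.4% of those with DSG alone (21.0 to 26.0%). Summits lay in a wild-type domain for 5.87% (5.20 to 6.61%) and 13.1% (11.2 to 15.2%). The wild-type domains cover 20.9 Mb and the regions that only the mutant list marks cover 6.05 Mb. Among the weakest of 5 equal groups of the peaks with DSG by fold, peaks with a counterpart had 28.9% in such mutant regions (24.6 to 33.6%) and peaks alone 22.9% (19.9 to 26.1%), and in wild-type domains they had 14.3% and 12.9%. In the weakest 2 groups together the mutant regions held 31.9% (29.3 to 34.7%) and 23.6% (21.1 to 26.3%), and wild-type domains 10.6% and 13.0%. For the mutant regions, the gap between peaks with and without a counterpart was smaller among weak peaks than over the whole list. Its intervals overlapped in the weakest group and stayed apart in the weakest 2 groups together. Within these 2 groups, peaks were not matched for fold. The weakest group held 384 of the 1118 peaks with a counterpart and 695 of the 1039 alone. For wild-type domains the order was reversed in the weakest group.

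**Figure D5:**
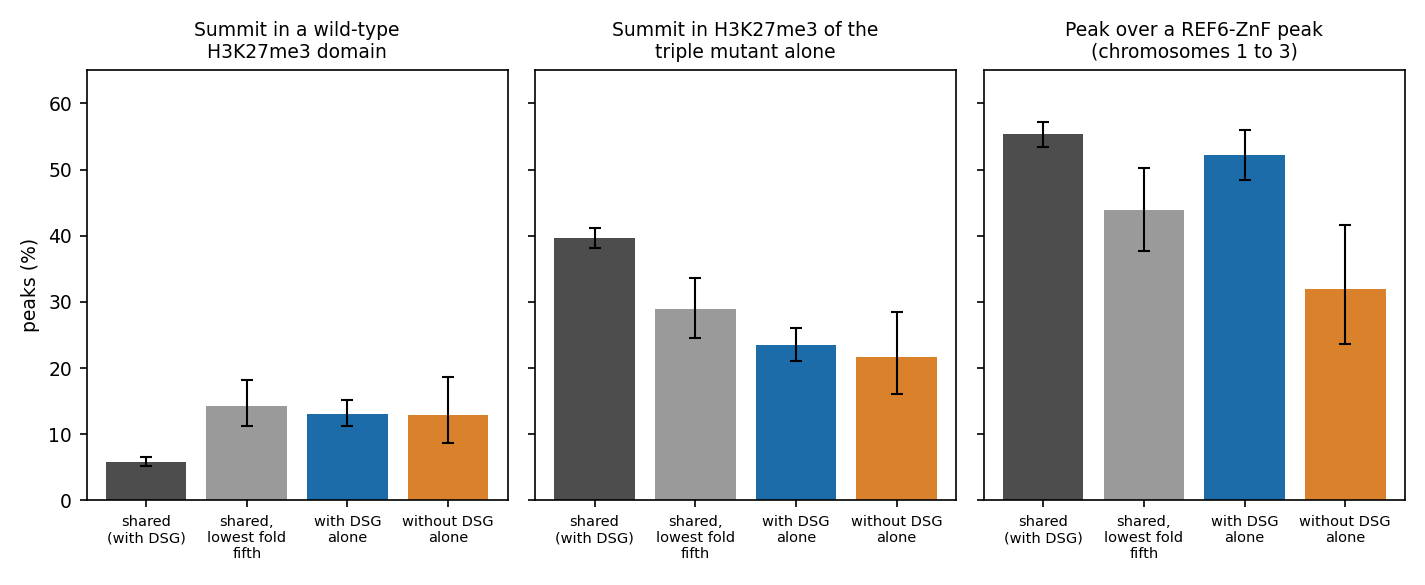
Share in % of REF6-GFP peaks, with 95% Wilson intervals, whose summit lies in a wild-type H3K27me3 domain or in a region marked only in the triple mutant, and that overlap a REF6-ZnF-GFP peak on chromosomes 1 to 3, for peaks with DSG that have a counterpart (shared), those of them in the weakest of 5 fold groups of that list, and peaks of either list alone. Peaks with a counterpart held 39.6% in regions marked only in the triple mutant, and peaks with DSG alone held 23.4%.

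The genes followed the same order. Among genes with domains over less than 10% of the body in the wild type, those with at least 50% covered in the triple mutant were 1086 of 4553 (23.9%, 22.6 to 25.1%) where both lists bound the gene. They were 104 of 953 (10.9%, 9.09 to 13.1%) where the list with DSG alone did, 17 of 181 (9.39%, 5.95 to 14.5%) where the list without DSG alone did, and 3.78% in genes bound in neither. Among genes bound in both lists whose highest fold with DSG was in the lowest 2 of the 5 groups, the share was 14.8% (12.8 to 17.1%). Genes with at least 50% covered in the wild type were 11.5% of those bound in both, 17.7% of those bound with DSG only and 19.1% of those bound without DSG only, all below the 27.5% of genes bound in neither list and the 23.7% of all coding genes.

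Some list members gained the mark in the triple mutant, and others already carried it in the wild type. NCED3, YUC3, DWF4, NAP and GA2OX1, all bound in both lists, had 0% of their bodies covered in wild-type flowers. In the triple mutant the domains covered 77.2% of NCED3, 70.7% of YUC3, 71.4% of DWF4 and 100% of NAP and GA2OX1. Of the 42 members bound in both lists, 23 had under 10% covered in the wild type, and 10 of these 23 had at least 50% covered in the mutant. Of the 5 members bound with DSG only, 4 were already marked over at least 50% of the body in the wild type, YUC1 and PIN5 at 100%, YUC8 at 84.1% and CHI at 79.3%. The same held for 10 of the 42 members bound in both lists and 86 of the 127 bound in neither. The 5 members are too few to set an order. Over all genes, those bound with DSG only were marked in the wild type less often than those bound in neither (17.7% against 27.5%). PIN7 was covered at 16.7% and 51.5%.

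REF6-ZnF-GFP, titled as profiled with DSG in the triple mutant, gave a further readout on chromosomes 1 to 3. Its peaks overlapped 55.3% of the REF6-GFP peaks with DSG that had a counterpart (53.4 to 57.2%), 52.2% of those with DSG alone (48.5 to 56.0%), and 32 of the 100 peaks without DSG alone (32.0%, 23.7 to 41.7%). On chromosomes 4 and 5 the same shares were 12.8%, 8.96% and 2.82%. The cause of this drop was not tested, and it is not known whether the REF6-ZnF-GFP list is complete on these chromosomes. At equal list length, 60.9% of the peaks with DSG alone and 36.5% of those without DSG alone on chromosomes 1 to 3 overlapped a REF6-ZnF-GFP peak. Among the weakest of the 5 groups by fold, peaks with a counterpart overlapped at 43.8% with DSG and 53.4% without on these chromosomes. Unshared peaks of that group overlapped at 47.7% with DSG (43.0 to 52.4%) and 34.6% without (25.1 to 45.4%). In the weakest 2 groups together, unshared peaks overlapped at 50.9% with DSG (47.1 to 54.8%) and 32.0% without (23.7 to 41.7%). The intervals thus stayed apart over the whole lists and in the weakest 2 groups together, and overlapped in the weakest group. The difference between the unshared peaks with and without DSG was not tested. REF6-ZnF-GFP shares fixation with DSG with only 1 of these 2 sets, whose peaks were also wider, with medians of 485.5 and 423 bp. The parts of fixation and width cannot be told apart here. The H3K27me3 shares of the 2 unshared sets were close, at 13.1% and 12.9% in wild-type domains. In regions marked only in the triple mutant they were 23.4% and 21.6%.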

How the data were processed

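Both REF6-GFP lists, the H3K27me3 lists and the triple mutant REF6-ZnF-GFP list were used, and all other samples were not used here. Per the submitters' processing notes, the tools were deepTools, MACS2 2.1.0, Picard 2.60 and Bowtie 1.1.2 and the build was TAIR10, with no order or settings given. The deposited lists have no header and were read in the order MACS2 writes. Each deposited list was treated as 1 call on pooled samples, as its peak names say pooled. The fold enrichment is the authors' linear ratio to a control, the −log10 p and −log10 q are deposited per peak, and the summit offset and the score are the authors' values as deposited, the score not being used. Of the peak numbers in the names, 49.5% were kept with DSG and 47.8% without, by a rule not stated in the sources used here, so a peak of one list alone may have been called and removed in the other. Read depth is not used here, so its part in the list lengths was not tested.

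Summits were placed at the start plus the deposited offset. Genes and names came from a RefSeq table of TAIR10.1, used for names and neighbourhood only, and all 174 list members matched by identifier. Summits fell in coding bodies at 85.9% and 86.9% unshifted and at 63.8 to 65.1% when shifted by 5 to 20 kb. Named genes are the list members, the 10 named genes of highest fold among those bound in both lists or in one only, and the genes nearest the 5 peaks with extreme summit distance, width, width ratio, rank difference or number of counterparts. From these, examples were chosen for the text. The values of 2 named genes are not reported here. The members, lists and comparisons were chosen with earlier results of these data known. A planned motif search and planned distances along the strand were not run, because no sequence or strand was used here. Matching, summit distances and gene calls were tested on simulated lists, and the interval of a median on a known series of numbers. Wilson's intervals were not tested. Calculations used Python 3.11.15, numpy 2.4.6, pandas 2.3.3, scipy 1.17.1 and matplotlib 3.10.9.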

Additional observations from a re-analysis of the deposited data

How the results depend on the processing

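Of 148 recomputed values under 11 alternatives, 123 moved by less than their interval or 1.5 times and 25 moved by more. Changes in the order of groups were not counted, and some occurred. The shared part of the peaks without DSG was 96.8% at a −log10 q of at least 10. At an overlap of at least 50% of both peaks it was 91.6% without DSG and 76.9% with it, and with summits within 200 bp it was 93.3% and 78.3%. At equal list length it was 91.0% and 89.6%, peaks without DSG over several peaks with DSG numbered 3, genes bound with DSG only 552 and without DSG only 504, and list members bound with DSG only 3. There, peaks with DSG alone lay in wild-type domains at 15.7% and overlapped REF6-ZnF-GFP peaks at 60.9% on chromosomes 1 to 3. Peaks with DSG that had a counterpart overlapped them at 56.1%, the reverse of the order over the whole lists (52.2% alone and 55.3% with a counterpart). With one −log10 p minimum, an alternative chosen after the data were seen, the shared part was 98.1% without DSG and 73.6% with it, and 113 genes were bound without DSG only. Genes bound in both lists numbered 3609 with summits in the body only and 9033 within 3 kb, where list members bound in one list only were 10 with DSG and 2 without. At a −log10 q of at least 10 for H3K27me3, wild-type domains held 4.21% of the peaks with a counterpart and 10.4% of those with DSG alone, and regions marked in the triple mutant alone held 34.1% and 20.9%. In that setting the share of genes gaining the mark was 13.0% for genes bound with DSG only and 14.5% without DSG only. This reversed the order of 10.9% and 9.39% in the main setting. In pairs without a letter, also added after the data were seen, Spearman's rho of the folds was 0.882.

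No paired analysis was possible because each group is 1 pooled list, and leaving out a sample was not possible for the same reason. The lists carry no read counts, so the depth behind each peak is unknown.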
